A study of Mus musculus with 12 samples.

Results

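The genes described here are the amino acid and peptide transporters of the Slc1a, Slc3a, Slc6a, Slc7a, Slc15a, Slc36a, Slc38a and Slc43a families in mouse skin and in cultured mouse keratinocytes. With earlier results of these data known, they were chosen by gene symbol, as every probe set of the array annotated to 1 symbol that begins with a family name, with the cystine carrier Slc7a11 left out. This gave 72 of the 20380 probe sets with 1 symbol, or 47 of 12393 genes. RefSeq lists 67 protein-coding genes in these families, and 20 of them, including all of Slc36a as well as Slc38a9, Slc43a1 and Slc43a2, were not measured here.

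Total RNA was hybridised to 12 one-colour Affymetrix arrays. The 5 keratinocyte cultures came from newborn mice, each a pool of the cells of 5 mice of 1 genotype, kept unpassaged in low-calcium medium for at most 3 days; cultures 1 and 2 were of a mixed strain of C57, DBA and FVB and cultures 3, 4 and 5 were FVB. The other arrays held whole skin, 2 from newborn FVB mice and 5 from mice of the mixed strain aged 30 days. No treatment, transgene or deletion is named for any group. Age and strain coincide in the skin samples, so in that comparison they cannot be told apart, and 2 newborn arrays limit its precision. The cultures came from newborn mice, so they differ from 30-day skin, and in part from all skin, in the age of the mice as well. No label names the animals behind the skin arrays, and p-values therefore rest on variation among arrays that could be partly technical.

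Transporters of these families move amino acids, short peptides and related small molecules across the plasma membrane or the membranes of lysosomes. Some use the sodium or proton gradient to concentrate their substrates, while others exchange an internal amino acid for an external one, so that uptake by the first kind feeds the second. The Slc7a light chains reach the cell surface only when joined to a heavy chain, Slc3a2 or Slc3a1. In keratinocytes, imported amino acids serve protein synthesis and, through lysosomal carriers and sensors, control of the mTORC1 kinase.

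All values are log2 RMA expression values, a summary of probe brightness on a log scale in which 1 unit is a doubling. Each gene is represented by its brightest probe set, and a gene is said to be called, or to have risen or fallen, where limma's test across all 12393 genes gave a Benjamini-Hochberg adjusted p of 0.05 or less. Array medians lay between 5.86 and 6.01. Of the 47 transporter genes, 23 had a mean at or below the mean array median in every group and 16 had a mean above it in every group. Differences among the dimmest probe sets are compressed on this scale. A filter that leaves out the dimmest 40% of all genes keeps 18 of the 47. The array 30-day skin 1 stood apart in its actin control, whose 3′ probe set exceeded its 5′ probe set by 1.74 log2 units against 0.669 to 0.815 in the other 30-day arrays. The same gap also moved with the groups, at 0.214 and 0.347 in the mixed-strain cultures, 0.56 to 0.74 in the FVB cultures and 0.991 and 1.14 in newborn skin, and its part in the differences below was not tested. Leaving out a newborn array, or culture 1 or 2 in the strain comparison, left a group of 1 array that was assumed to vary like the others, so a call lost at a like value there reflects lower precision. Within groups, cultures 1 and 2, newborn skins 1 and 2, 30-day skins 2 and 3 and 30-day skins 4 and 5 differed by root mean squares of only 0.156, 0.198, 0.169 and 0.178.

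The labelled cell and tissue types were checked against marker genes. The mean log2 value of 9 hair shaft and root sheath genes lay between 5.10 and 5.27 in cultures, 10.33 and 10.34 in newborn skin, and 11.54 and 12.06 in 30-day skin, and all 9 were lower in cultures than in skin. All 9 fibroblast genes (list means of 5.50 to 6.15 in cultures against 10.10 to 10.92 in skin), all 8 adipocyte genes, all 10 skeletal muscle genes, all 8 endothelial genes, 8 of 9 macrophage genes, 6 of 8 mast cell genes, 4 of 5 sebaceous genes and 2 of 4 erythroid genes were also lower in cultures. Of 8 melanocyte genes 6 were lower, but their list means of 6.90 to 8.25 in cultures came close to, and partly overlapped, those of 7.94 to 8.84 in skin. Of 4 Schwann and nerve genes, 2 were higher and 1 was lower. Of 9 epidermal keratinocyte genes, 3 were higher and 4 lower in cultures, with list means of 9.97 to 10.48 in cultures, 11.40 to 11.43 in newborn skin and 10.83 to 11.06 in 30-day skin. Hair, fibroblast, adipocyte, muscle and endothelial genes were thus all called lower in the cultures, where 22.4% of all genes were lower and 24.6% higher. In such bulk RNA, fewer cells of a type and less RNA per cell cannot be told apart, and the part of cell makeup in the differences below was not tested.

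In cultures compared with all skin, 8 transporter genes were higher and 14 were lower, which is 22 of 47, where 47% of all genes tested were called in this comparison, 24.6% as higher and 22.4% as lower. The share of transporters called was therefore close to that of all genes, and the median log2 difference of the 47 was -0.06 against 0.012 over all genes. At 2-fold or more, 3 were higher and 2 lower (11.7% of all genes in either direction). The arrays of the cultures lay above all skin arrays in 4 called or uncalled transporters and below them in 10 (15.3% and 13.7% of all genes). The peptide transporter Slc15a3 was 21.0-fold higher in cultures on the RMA scale, which understates ratios against values as dim as those of skin here, and the neutral amino acid exchanger Slc7a8 and the peptide transporter Slc15a1 were the 2 with a fall of at least 2-fold. Centring the arrays on their medians moved the median of all genes from 0.012 to 0.175 and gave 16 higher and 12 lower transporters, whereas centring on a list of epithelial junction genes moved the median gene to -0.574 and gave 4 higher and 38 lower. Of the 20 junction genes measured, 11 were themselves higher in cultures and 3 lower (median 0.434), so this centring lowers every gene's difference by the same amount.

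**Figure D1:**
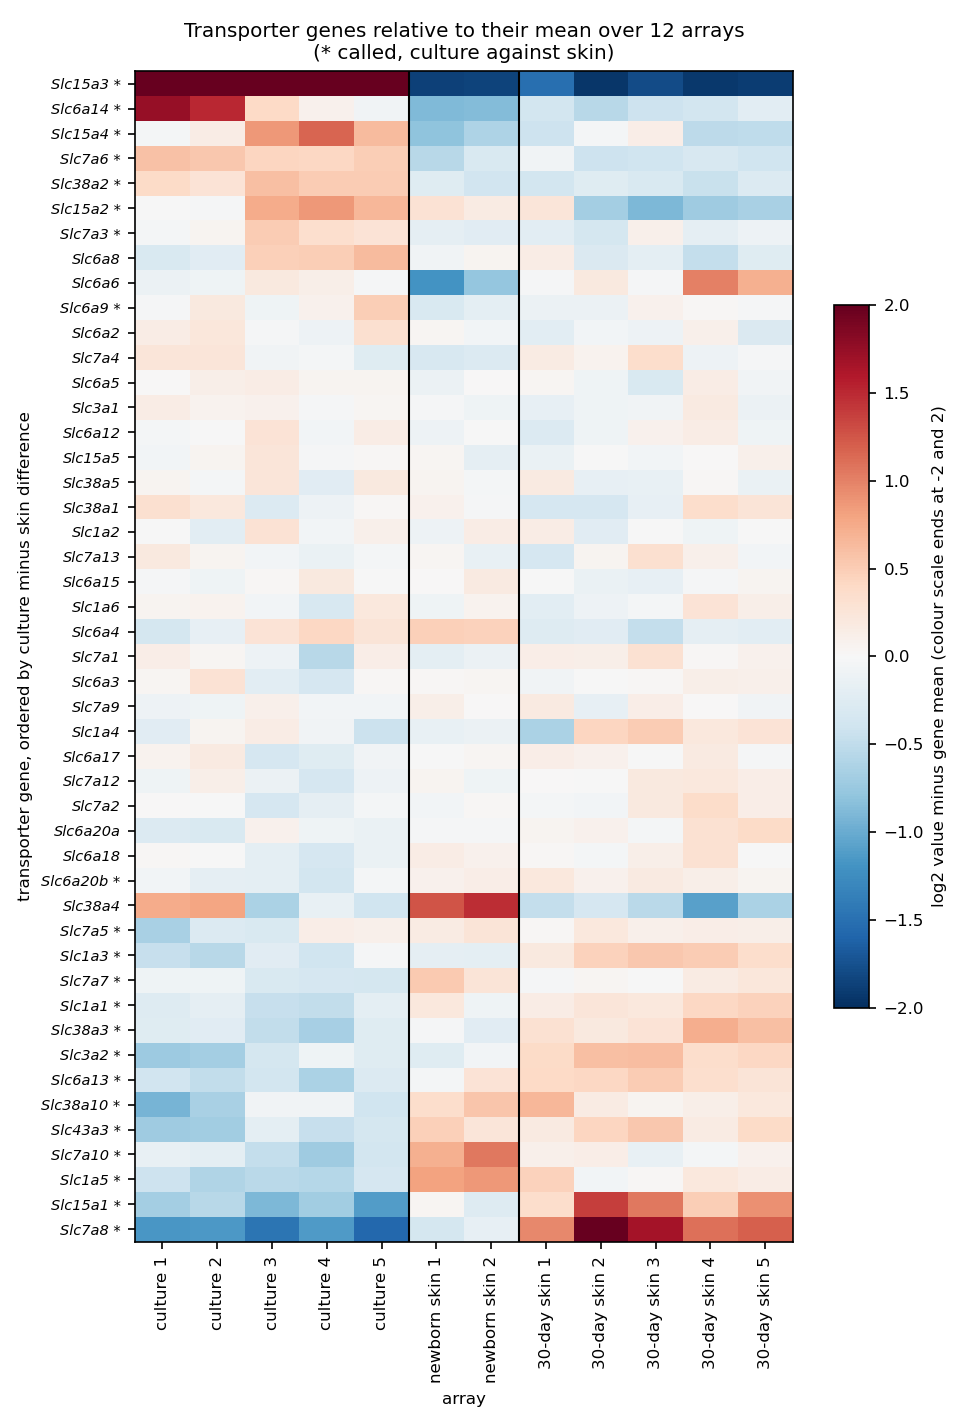
Log2 value of each of the 47 transporter genes (vertical) minus its mean over the 12 arrays (horizontal), with genes ordered by the culture minus skin difference, red for above and blue for below the mean, and an asterisk for the 22 genes called in cultures against skin. The colour scale ends at -2 and 2, which Slc15a3 exceeds in cultures and Slc7a8 in 30-day skin 2. In all 5 cultures Slc15a3 fills the top line in red and Slc7a8 the bottom line in blue. The Slc7a8 line is red in 30-day skin, and most lines between these genes are pale.

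Promoter sequences from RefSeq were available for 31 of the 47 genes (50 windows, build GRCm38.p6) and were searched, over the 250 bases before each start and on both strands, for 4 short motifs. These were TGANTCA, bound by Fos and Jun dimers (AP-1; 6.75% of all promoter windows and 7.82% of genes with one), TGATGNAA, the amino acid response element bound by ATF4 partners (CARE; 3.45% and 3.91%), TCACGTGA, bound by the lysosomal regulator TFEB (CLEAR; 0.785% and 0.907%), and a pair of GAAA repeats with any 2 bases between them, bound by interferon regulatory factors (ISRE; 2.98% and 3.46%). The AP-1 letters were found in 8 of the 50 windows (16%) and for 7 of the 31 genes (22.6%; Slc38a10, Slc3a1, Slc6a12, Slc6a14, Slc6a17, Slc6a5 and Slc7a1), the CARE letters in 2 windows of 1 gene (Slc7a7) and the other motifs for 0 of 31. Of these genes, Slc6a14 was higher and Slc38a10 and Slc7a7 were lower in cultures, and their windows are shown 5′ to 3′ on the gene's strand, with the matched motif in capitals. A match is a description of the letters only. The windows are Slc6a14 at chrX:21714650-21714899 on the plus strand (AP-1 letters beginning 82 bases before the start), Slc38a10 at chr11:120151352-120151601 on the minus strand (AP-1, 166 bases before), and Slc7a7 at chr14:54417945-54418194 on the minus strand (CARE, 141 bases before the start of 1 of its transcripts).
Slc6a14: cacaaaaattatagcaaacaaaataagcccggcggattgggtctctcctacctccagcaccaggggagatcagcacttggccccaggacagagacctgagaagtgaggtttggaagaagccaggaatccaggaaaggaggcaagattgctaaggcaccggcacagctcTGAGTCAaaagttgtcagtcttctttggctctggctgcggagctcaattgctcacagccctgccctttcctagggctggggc
Slc38a10: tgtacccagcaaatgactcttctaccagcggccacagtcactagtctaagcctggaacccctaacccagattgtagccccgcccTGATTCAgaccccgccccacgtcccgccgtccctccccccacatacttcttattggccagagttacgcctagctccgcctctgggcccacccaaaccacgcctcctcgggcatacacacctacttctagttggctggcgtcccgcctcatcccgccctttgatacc
Slc7a7: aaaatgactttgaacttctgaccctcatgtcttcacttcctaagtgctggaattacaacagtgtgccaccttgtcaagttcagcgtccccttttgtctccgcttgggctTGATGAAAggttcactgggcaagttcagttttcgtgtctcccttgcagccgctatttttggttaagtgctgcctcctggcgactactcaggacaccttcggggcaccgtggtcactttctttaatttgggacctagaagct

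The proton-coupled peptide transporters of the Slc15a family had 3 of 5 genes higher and 1 lower in cultures (24.6% and 22.4% of all genes). Slc15a3, a carrier of histidine and dipeptides in the membranes of lysosomes and endosomes, read 9.03, 9.07, 9.11, 9.09 and 8.75 in cultures 1 to 5, 4.59 and 4.60 in newborn skin, and 4.94, 4.51, 4.67, 4.52 and 4.55 in 30-day skin. Every culture stood far above every skin array, and the gene lay below the array's own median in all skin arrays. The difference from all skin was 4.39 ± 0.10 (SE; limma adjusted p = 8.5e-14), with 4.41 against newborn and 4.37 against 30-day skin, and it kept its direction and call under every alternative run, between 3.81 and 4.56 against all skin. Its close relative Slc15a4, also an endolysosomal histidine and peptide carrier, read 6.78, 6.95, 7.68, 7.98 and 7.45 in cultures, 6.0 and 6.20 in newborn skin, and 6.40, 6.77, 6.95, 6.29 and 6.31 in 30-day skin. The FVB cultures lay above all skin arrays, while the mixed-strain cultures overlapped the highest 30-day arrays. The difference from all skin was 1.05 ± 0.20 (limma adjusted p = 0.00053), with 1.27 against newborn skin and 0.82 against 30-day skin. When only mixed-strain cultures were set against the mixed-strain 30-day skin, the last value was 0.32 and was not called (limma adjusted p = 0.186).

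The plasma membrane peptide transporters did not move together. Slc15a1, the low-affinity uptake system best known from the intestine, read 4.35, 4.48, 4.14, 4.34 and 3.91 in cultures, 5.07 and 4.77 in newborn skin, and 5.38, 6.41, 6.08, 5.52 and 5.95 in 30-day skin. The 3 groups did not overlap, with cultures lowest and 30-day skin highest, and Slc15a1 was 1 of the genes at or below the array median in every group. It fell by 1.15 ± 0.17 against all skin (limma adjusted p = 5.1e-05) and by 1.62 against 30-day skin. Its difference from newborn skin (-0.68, limma adjusted p = 0.033) lost its call without culture 3, culture 5, newborn skin 1 or newborn skin 2 (-0.83 to -0.53, adjusted p of 0.0596 to 0.266) or with arrays centred on their medians (-0.50, adjusted p = 0.0973). Slc15a2, the high-affinity peptide transporter, read 6.85, 6.83, 7.59, 7.72 and 7.53 in cultures, 7.15 and 7.01 in newborn skin, and 7.09, 6.17, 5.95, 6.15 and 6.21 in 30-day skin. Cultures and newborn skin overlapped, and 30-day skin was lower except for 30-day skin 1. The difference from all skin was 0.61 ± 0.21 (limma adjusted p = 0.028) and was lost without culture 3, 4 or 5 or without either newborn array (0.50 to 0.64, adjusted p of 0.0606 to 0.0912). Against 30-day skin Slc15a2 was higher by 0.99 (limma adjusted p = 0.0015), or by 0.53 with strains matched (adjusted p = 0.108), and its other probe set differed by only -0.12 from all skin and was not called. Slc15a5 differed by 0.09 (95% interval of -0.08 to 0.27) and was not called.

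**Figure D2:**
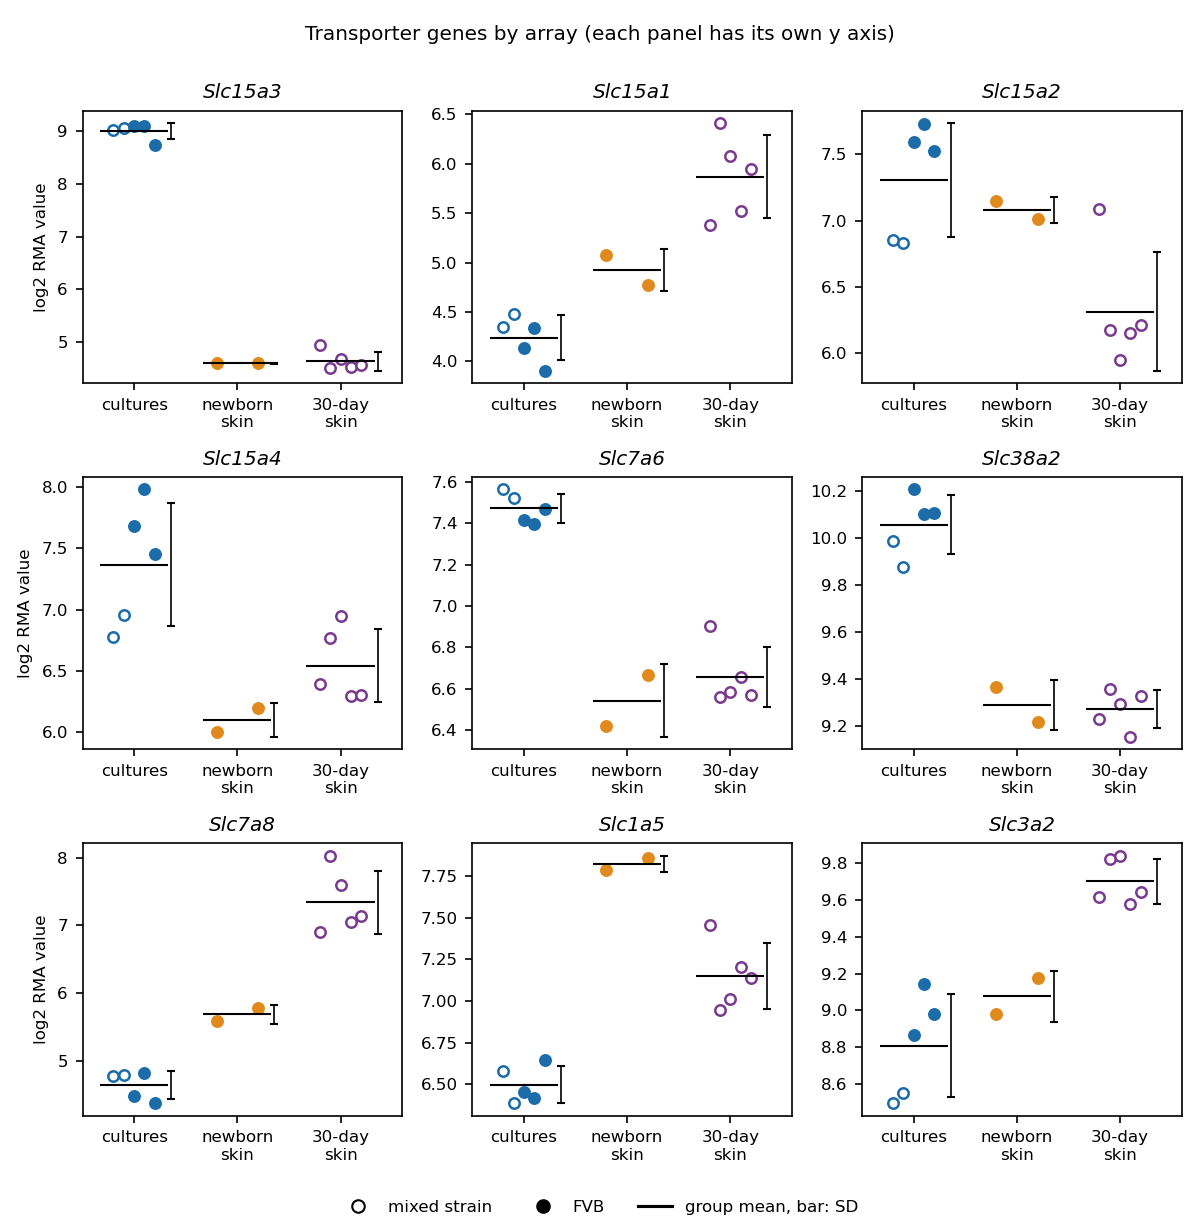
Log2 RMA value of 9 transporter genes on each array (vertical axes, which differ between panels) for the 5 cultures, 2 newborn skins and 5 30-day skins; open circles are mixed-strain and filled circles FVB samples, lines are group means and bars 1 SD. Slc15a3, Slc7a6 and Slc38a2 lie above every skin array in all cultures, and Slc15a1, Slc7a8 and Slc1a5 below every skin array.

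Among the 12 Slc7a amino acid exchangers and carriers, 2 were higher and 4 lower in cultures (24.6% and 22.4% of all genes). Slc7a8, a light chain that exchanges a wide range of neutral amino acids, read 4.77, 4.79, 4.48, 4.82 and 4.37 in cultures, 5.59 and 5.78 in newborn skin, and 6.90, 8.03, 7.60, 7.04 and 7.14 in 30-day skin. The 3 groups formed separate bands, cultures lowest. It fell by 1.87 ± 0.18 against all skin (limma adjusted p = 6.1e-07), and the difference was larger against 30-day skin (-2.70, adjusted p = 1.7e-08) than against newborn skin (-1.04, adjusted p = 0.0035), the last call being lost without newborn skin 2 (-0.94, adjusted p = 0.0529). The related exchanger Slc7a5, which imports large neutral amino acids such as leucine, read 7.39, 7.77, 7.74, 8.17 and 8.14 in cultures, 8.21 and 8.31 in newborn skin, and 8.06, 8.26, 8.15, 8.18 and 8.16 in 30-day skin. Cultures 4 and 5 were within the range of 30-day skin and cultures 1, 2 and 3 were below it. The difference from all skin was -0.37 ± 0.12 (limma adjusted p = 0.025), and it was not called without culture 1, 2 or 3, newborn skin 1 or newborn skin 2 (-0.39 to -0.25, adjusted p of 0.0509 to 0.0877) with arrays centred on their medians (-0.20, adjusted p = 0.173) or against either age alone (-0.41 and -0.32, adjusted p = 0.073 and 0.055).

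Slc3a2, the heavy chain with which Slc7a5, Slc7a6, Slc7a7, Slc7a8 and Slc7a10 pair, read 8.50, 8.55, 8.87, 9.15 and 8.98 in cultures, 8.98 and 9.17 in newborn skin, and 9.61, 9.82, 9.84, 9.58 and 9.64 in 30-day skin. Cultures and newborn skin overlapped and all 30-day arrays were higher. It fell by 0.58 ± 0.12 against all skin (limma adjusted p = 0.00088) and decreased by 0.89 against 30-day skin (adjusted p = 2.6e-05), whereas the difference from newborn skin was -0.27 with a 95% interval of -0.62 to 0.08 and was not called. Slc3a1, the heavy chain of the cystine and dibasic amino acid exchanger, differed by 0.12 (-0.05 to 0.28), and its light chain Slc7a9 by -0.08 (-0.26 to 0.09), and neither was called.

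The exchangers of cationic for neutral amino acids moved in opposite directions. Slc7a6 read 7.56, 7.52, 7.41, 7.40 and 7.47 in cultures, 6.42 and 6.67 in newborn skin, and 6.91, 6.56, 6.58, 6.66 and 6.57 in 30-day skin. All cultures lay above all skin arrays, with 30-day skin 1 the nearest. It rose by 0.87 ± 0.09 (limma adjusted p = 8.1e-07), with 0.93 and 0.82 against newborn and 30-day skin, and its other probe set also gave 0.87. Slc7a7 has the CARE letters in 2 of its promoter windows but not in its others. The gene read 4.55 to 4.81 in cultures, 5.14 and 5.41 in newborn skin and 4.87 to 5.12 in 30-day skin, below every array's median. It fell by 0.46 ± 0.09 (limma adjusted p = 0.00059) between groups that did not overlap, or by 0.30 with arrays centred on their medians, which kept the call. Its difference from 30-day skin (-0.30) was -0.16 both with strains matched and with median centring, and was then not called (adjusted p = 0.305 and 0.188). Slc7a10, a carrier of small neutral amino acids including D-serine and known as an adipocyte surface protein, read 5.41, 5.35, 5.08, 4.84 and 5.18 in cultures, 6.26 and 6.61 in newborn skin, and 5.66, 5.68, 5.41, 5.51 and 5.65 in 30-day skin. Newborn skin was highest, and culture 1 and 30-day skin 3 touched at 5.41 to 2 decimals. Slc7a10 fell by 0.84 ± 0.11 against all skin (limma adjusted p = 1.9e-05) and by 1.26 against newborn skin. Against 30-day skin it fell by 0.41, but this was -0.20 with strains matched and -0.26 with median centring, and was not called in either (adjusted p = 0.218 and 0.062). These values stand beside those of the 8 adipocyte markers, whose list mean was 4.95 to 5.13 in cultures, 9.33 to 9.41 in newborn skin and 8.48 to 9.10 in 30-day skin. The part of those cells in its fall was not tested.

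The cationic amino acid importers Slc7a1, which brings arginine and lysine into most cells, and Slc7a2 were not called. Slc7a1 read 4.0 to 4.68 in cultures and 4.35 to 4.85 in skin, a difference of -0.06 (-0.31 to 0.19), from a probe set below every array's median. Slc7a3, their relative and also below every array's median, differed by 0.40 ± 0.11 (limma adjusted p = 0.0075), or -0.19 once the junction centring had lowered all genes. Its rise of 0.43 against newborn skin (limma adjusted p = 0.038) lost its call without culture 3, 4 or 5 or either newborn array (0.36 to 0.45, adjusted p of 0.0605 to 0.191), and its rise of 0.37 against 30-day skin (adjusted p = 0.014) was 0.15 with strains matched (adjusted p = 0.375). Slc7a2, Slc7a4, Slc7a12 and Slc7a13 differed by -0.17, 0.13, -0.15 and 0.02 and were not called.

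Among the 6 Slc1a genes, which carry glutamate, aspartate or small neutral amino acids with sodium, 3 were lower in cultures and 0 higher (22.4% and 24.6% of all genes). Slc1a5, the exchanger that supplies many proliferating cells with glutamine, read 6.58, 6.39, 6.46, 6.42 and 6.65 in cultures, 7.79 and 7.86 in newborn skin, and 7.46, 6.94, 7.01, 7.20 and 7.14 in 30-day skin. The groups did not overlap, with newborn skin highest and cultures lowest. Slc1a5 fell by 0.99 ± 0.10 (limma adjusted p = 7.8e-07), by 1.33 against newborn and by 0.65 against 30-day skin. Slc1a3, a glutamate and aspartate carrier prominent in astrocytes, read 5.15, 5.05, 5.38, 5.21 and 5.59 in cultures, 5.43 and 5.42 in newborn skin, and 5.8, 6.07, 6.15, 6.11 and 5.96 in 30-day skin. Culture 5 lay above the newborn arrays and all cultures below the 30-day arrays. Its difference from all skin was -0.45 ± 0.10 (limma adjusted p = 0.0022), or -0.28 and still called with median centring, and 2 further probe sets of the gene gave -1.20 and -1.12 and were also called against newborn skin (-0.99 and -1.03), where the brightest was not (-0.15). Slc1a1, an excitatory amino acid carrier found in epithelia, read 4.78 to 5.09 in cultures and 5.18 to 5.73 in skin, below every array's median. It fell by 0.49 ± 0.10 (limma adjusted p = 0.00057), while its other probe sets gave -0.17 and -0.08 and were not called. Its call against newborn skin (-0.38, adjusted p = 0.036) was lost without culture 3, culture 4 or newborn skin 1 (-0.34, -0.33 and -0.23, adjusted p = 0.0686, 0.0659 and 0.387) and with median centring (-0.20, adjusted p = 0.235). Slc1a4, which carries alanine, serine and cysteine, read 5.67 to 6.26 in cultures, 5.96 and 5.99 in newborn skin, and 5.47, 6.54, 6.61, 6.32 and 6.37 in 30-day skin. These ranges overlapped, and its difference of -0.12 (-0.50 to 0.26), like those of Slc1a2 (0.03) and Slc1a6 (-0.01), was not called.

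In the Slc38a family of sodium-coupled neutral amino acid transporters, 1 of 6 genes was higher and 2 were lower (24.6% and 22.4% of all genes). Slc38a2, the system A carrier that accumulates glutamine and alanine and is known to be induced when amino acids run short, read 9.99, 9.88, 10.20, 10.10 and 10.11 in cultures, 9.36 and 9.22 in newborn skin, and 9.23, 9.36, 9.29, 9.15 and 9.33 in 30-day skin. Every culture exceeded every skin array by at least 0.5 units, and the ranges of the 2 ages of skin overlapped. It rose by 0.77 ± 0.08 (limma adjusted p = 1.5e-06), by 0.77 against newborn skin and 0.78 against 30-day skin, which the junction centring lowered to 0.19, -0.01 and 0.39. Its neighbours on chromosome 15, Slc38a1 and Slc38a4, between which and Slc38a2 RefSeq places 0 other coding genes, did not share this pattern. Slc38a1, another system A carrier, read 6.73, 6.64, 6.15, 6.32 and 6.45 in cultures, 6.5 and 6.39 in newborn skin, and 6.08, 6.09, 6.25, 6.77 and 6.67 in 30-day skin, with all groups overlapping and a difference of 0.05 (-0.27 to 0.36). Slc38a4 differed in sign between the ages of skin and is described with them.

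The fallen genes of the family were Slc38a10 and Slc38a3. Slc38a10, an intracellular member with the AP-1 letters shown above, read 7.19, 7.48, 8.06, 8.06 and 7.73 in cultures, 8.48 and 8.69 in newborn skin, and 8.79, 8.29, 8.19, 8.25 and 8.34 in 30-day skin. All cultures lay below all skin arrays, cultures 1 and 2 farthest. It fell by 0.77 ± 0.16 (limma adjusted p = 0.00093). Its 7 probe sets disagreed: 3 were called lower and 4 were not called, with differences from -0.77 to 0.14. Against newborn skin (-0.88) the call was lost without newborn skin 2 (-0.78, adjusted p = 0.0728), and against 30-day skin -0.67 became -1.03 with strains matched. Slc38a3, a glutamine carrier of system N, read 5.76 to 6.19 in cultures, 6.39 and 6.19 in newborn skin and 6.61 to 7.15 in 30-day skin. It fell by 0.52 ± 0.12 against all skin (limma adjusted p = 0.002) and by 0.80 against 30-day skin, but its difference from newborn skin was -0.24 (-0.59 to 0.10) and was not called. Slc38a5, another system N carrier, differed by 0.07 and was not called.

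Of the 15 Slc6a genes, which carry neurotransmitters, osmolytes and amino acids with sodium and chloride, 2 were higher and 2 lower in cultures (24.6% and 22.4% of all genes). Slc6a14, a carrier of nearly all neutral and cationic amino acids in mucosal epithelia, read 7.65, 7.41, 6.31, 5.99 and 5.84 in cultures, 5.03 and 5.03 in newborn skin, and 5.53, 5.35, 5.49, 5.54 and 5.70 in 30-day skin. All cultures lay above all skin arrays, but the FVB cultures by far less than those of the mixed strain. It rose by 1.36 ± 0.28 (limma adjusted p = 0.00096), by 1.61 against newborn and 1.12 against 30-day skin, and its other probe set gave 1.05. With strains matched these became 1.02 for FVB cultures against newborn skin and 2.01 for mixed-strain cultures against 30-day skin, both called (adjusted p = 7.8e-05 and 1.3e-07). Averaging arrays that lay close to each other, an alternative chosen after the data were seen, left 1.39 and 0.89 against the ages of skin without a call (adjusted p = 0.0713 and 0.0574). Slc6a13, a carrier of GABA and taurine, read 5.26, 5.15, 5.28, 5.01 and 5.37 in cultures, 5.60 and 5.92 in newborn skin, and 6.05, 6.06, 6.15, 5.97 and 5.90 in 30-day skin. All cultures lay below all skin arrays, and it fell by 0.68 ± 0.09 (limma adjusted p = 1.7e-05). Against newborn skin (-0.55) it was not called without newborn skin 2 (-0.39, adjusted p = 0.0848). Its neighbour Slc6a12, the betaine and GABA carrier next to it on chromosome 6, differed by 0.12 and was not called.

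The glycine transporter Slc6a9 read 7.46 to 8.04 in cultures, 7.24 and 7.35 in newborn skin and 7.43 to 7.64 in 30-day skin. Its difference of 0.27 ± 0.10 (limma adjusted p = 0.038) was 0.44 with median centring and -0.31 with the junction centring, both called, and the call was lost without any of culture 2, culture 4, culture 5, newborn skin 1, newborn skin 2 and 30-day skins 1, 2 and 5 (0.19 to 0.30, adjusted p of 0.05004 to 0.129). Against newborn skin its 0.39 lost the call without cultures 2, 4 or 5, either newborn array or 30-day skins 2, 4 or 5 (0.30 to 0.44, adjusted p up to 0.244). The imino acid carrier Slc6a20b read 4.28 to 4.61 in cultures and 4.70 to 4.86 in skin and fell by 0.28 ± 0.08 (limma adjusted p = 0.0076) at values below every array's median, but with arrays centred on their medians the difference was -0.12 and not called (adjusted p = 0.182). Its difference from 30-day skin was -0.29, or, without a call, -0.24 with strains matched and -0.15 with median centring (adjusted p = 0.0533 and 0.125). The adjacent Slc6a20a, also below every array's median, was called against 30-day skin alone (-0.30, limma adjusted p = 0.023). This call was lost without culture 1, culture 2, 30-day skin 4 or 30-day skin 5 (-0.27 to -0.25, adjusted p of 0.0551 to 0.0681) and with median centring (-0.15, adjusted p = 0.24). The creatine transporter Slc6a8 differed by 0.33 (-0.05 to 0.70) and was not called, whereas its other probe set rose by 1.03 (adjusted p = 1.7e-06 in the fit over all probe sets). The taurine, serotonin and neutral amino acid carriers Slc6a6, Slc6a4 and Slc6a18 were not called against all skin (0.32, -0.01 and -0.23), nor were Slc6a2, Slc6a3, Slc6a5, Slc6a15 and Slc6a17, which differed by -0.12 to 0.17.

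Slc43a3, a nucleobase carrier that shares its family with the leucine transporters, was the 1 gene of Slc43a measured. It read 4.82, 4.83, 5.33, 5.06 and 5.17 in cultures, 6.01 and 5.78 in newborn skin, and 5.70, 5.95, 6.06, 5.69 and 5.91 in 30-day skin. All cultures lay below all skin arrays and the ages of skin overlapped. It fell by 0.83 ± 0.11 (limma adjusted p = 1.9e-05), with -0.85 and -0.82 against newborn and 30-day skin. Its mean was below the mean array median in every group.

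Set against each age of skin separately, 8 transporters were higher and 10 lower in cultures than in newborn skin (18 of 47, where 36.5% of all genes were called, 17.9% higher and 18.6% lower), and 9 were higher and 14 lower than in 30-day skin (23 of 47, where 48.3% were called, 26.5% higher and 21.9% lower). With arrays centred on their medians these became 10 higher and 8 lower, and 16 higher and 10 lower. Centred on the epithelial junction genes they became 2 higher and 38 lower, and 5 higher and 33 lower. Without newborn skin 1 the number higher than newborn skin was 5, and without newborn skin 2 the number lower was 5. At 2-fold or more the numbers were 3 higher and 4 lower with newborn skin as reference (12.7% of all genes in either direction), and 2 and 2 with 30-day skin (12.3%). All cultures lay above newborn skin in 10 transporters and below it in 14 (24% and 23.7% of all genes), and above 30-day skin in 4 and below it in 13 (19.9% and 16.8%). Both comparisons use the same cultures, so each gene's values are given side by side. The taurine transporter Slc6a6 was higher than newborn skin by 0.997 (limma adjusted p = 0.0039) and differed from 30-day skin by -0.36, which was not called; the first call was lost without newborn skin 1 (0.79, adjusted p = 0.0866). Slc38a4 fell by 1.30 against newborn skin (limma adjusted p = 0.0063), and against 30-day skin it was higher by 0.69 (adjusted p = 0.035). The first of these was lost without newborn skin 2 (-1.19, adjusted p = 0.0726) and the second without culture 1, culture 2 or 30-day skins 3, 4 or 5 (0.51 to 0.71, adjusted p of 0.0524 to 0.0925) or with the mean of its probe sets (0.36, adjusted p = 0.0764). With strains matched the second was 1.39 and called (adjusted p = 6.5e-05). That value rests on the 2 mixed-strain cultures, which read 6.52 and 6.58. The FVB cultures, left out of it, read 5.15, 5.63 and 5.38 and overlapped the 30-day arrays (4.69 to 5.44). The serotonin transporter Slc6a4 was higher than 30-day skin by 0.36 (limma adjusted p = 0.038), but by 0.02 with strains matched (adjusted p = 0.93) and by -0.04 after junction centring, and this call was lost without cultures 3, 4 or 5 or 30-day skins 1, 2, 3 or 5 (0.28 to 0.37, adjusted p of 0.053 to 0.1).

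**Figure D3:**
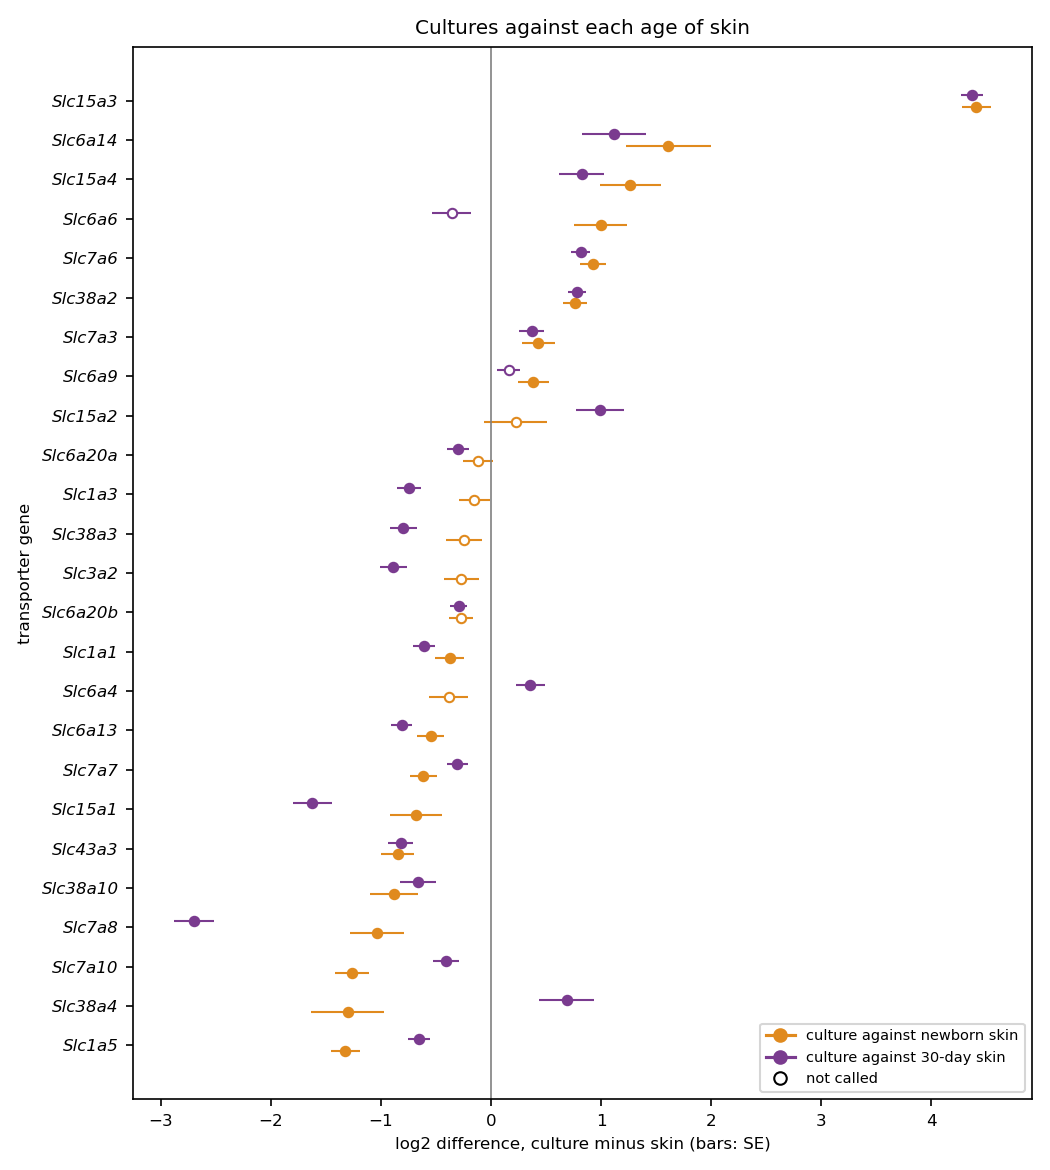
Log2 difference, culture minus newborn skin (orange) and culture minus 30-day skin (purple), for the 25 transporter genes called in at least 1 of them; bars are 1 SE and open circles were not called. Slc15a3 lies at 4.41 and 4.37, Slc7a8 at -1.04 and -2.70, and Slc38a4 lies on opposite sides of 0 (-1.30 and 0.69).

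Between the skin groups, 6 transporters were higher and 4 lower at 30 days than in newborns (10 of 47, where 15.8% of all genes were called, 5.91% higher and 9.84% lower), with strain differing in the same way as age. At 2-fold or more, 2 were higher and 1 lower (3.84% of all genes in either direction), and the arrays of the ages did not overlap in 11 that were higher and 5 that were lower (15.1% and 20.5%). Junction centring gave 3 higher and 20 lower. Leaving out newborn skin 1 left 2 higher, and leaving out newborn skin 2 left 2 higher and 1 lower. Slc7a8 rose by 1.66 ± 0.24 (limma adjusted p = 0.00034), from 5.59 and 5.78 to values of 6.90 to 8.03. The taurine transporter Slc6a6 read 5.94 and 6.35 in newborn skin and 7.11, 7.33, 7.11, 8.13 and 7.83 in 30-day skin. Its 30-day arrays all exceeded the newborn arrays, with 30-day skins 4 and 5 highest, and the rise was 1.35 ± 0.24 (limma adjusted p = 0.0014), although its other 2 probe sets gave 0.28 and -0.11 and were not called. Slc38a4, a system A carrier best known from liver and placenta, read 7.04 and 7.26 in newborn skin and 5.30, 5.44, 5.24, 4.69 and 5.15 in 30-day skin. The groups were more than 1.5 units apart, and Slc38a4 fell by 1.99 ± 0.33 (limma adjusted p = 0.00096), with -1.73 from its other probe set. The calls of Slc7a8, Slc6a6 and Slc38a4 in this comparison were kept under every alternative run, but their sizes moved. With strain as a covariate, estimated from the cultures, Slc38a4 fell by 3.15, Slc7a8 rose by 1.43 and Slc6a6 by 1.56, and with the mean of its probe sets Slc6a6 rose by 0.50.

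The other 7 age differences were each not called under at least 1 alternative. Slc7a10 fell by 0.85 (limma adjusted p = 0.0016) and Slc1a5 by 0.67 (adjusted p = 0.0032), and both lost the call without newborn skin 2 (-0.68 and -0.64, adjusted p = 0.0644 and 0.06). Slc15a1 rose by 0.94 (limma adjusted p = 0.013), Slc3a2 by 0.62 (adjusted p = 0.018), Slc1a3 by 0.59 (adjusted p = 0.011) and Slc38a3 by 0.55 (adjusted p = 0.032), and Slc6a4 fell by 0.74 (adjusted p = 0.01). With 1 newborn array left, where calls over all genes dropped from 732 higher and 1220 lower to 305 and 594 without newborn skin 1 and to 256 and 418 without newborn skin 2, these 5 kept their direction and were not called, without newborn skin 1 (1.09, 0.52, 0.60, 0.65 and -0.74, adjusted p of 0.0522 to 0.185) or without newborn skin 2 (0.79, 0.72, 0.59, 0.45 and -0.75, adjusted p of 0.0792 to 0.31). Slc38a3 was also not called without 30-day skin 4 or 5 (0.48 and 0.51). With strain as a covariate Slc15a1, Slc38a3 and Slc6a4 differed by 0.66, 0.32 and -0.17 and were not called, whereas Slc3a2 rose by 1.10 and was called. All 9 hair markers were higher in 30-day mixed-strain than in newborn FVB skin, where 5.91% of all genes were higher and 9.84% lower. Of 9 macrophage, 8 melanocyte and 5 sebaceous markers, 4, 2 and 2 were higher and 0 lower. Of 9 epidermal keratinocyte markers 1 was higher and 4 were lower, and of 10 skeletal muscle markers 2 were higher and 2 lower. Lower with 0 higher were 5 of 8 endothelial, 4 of 9 fibroblast, 3 of 8 adipocyte, 5 of 8 mast cell, 1 of 4 erythroid and 1 of 4 Schwann and nerve markers. Their part in the transporter differences was not tested.

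**Figure D4:**
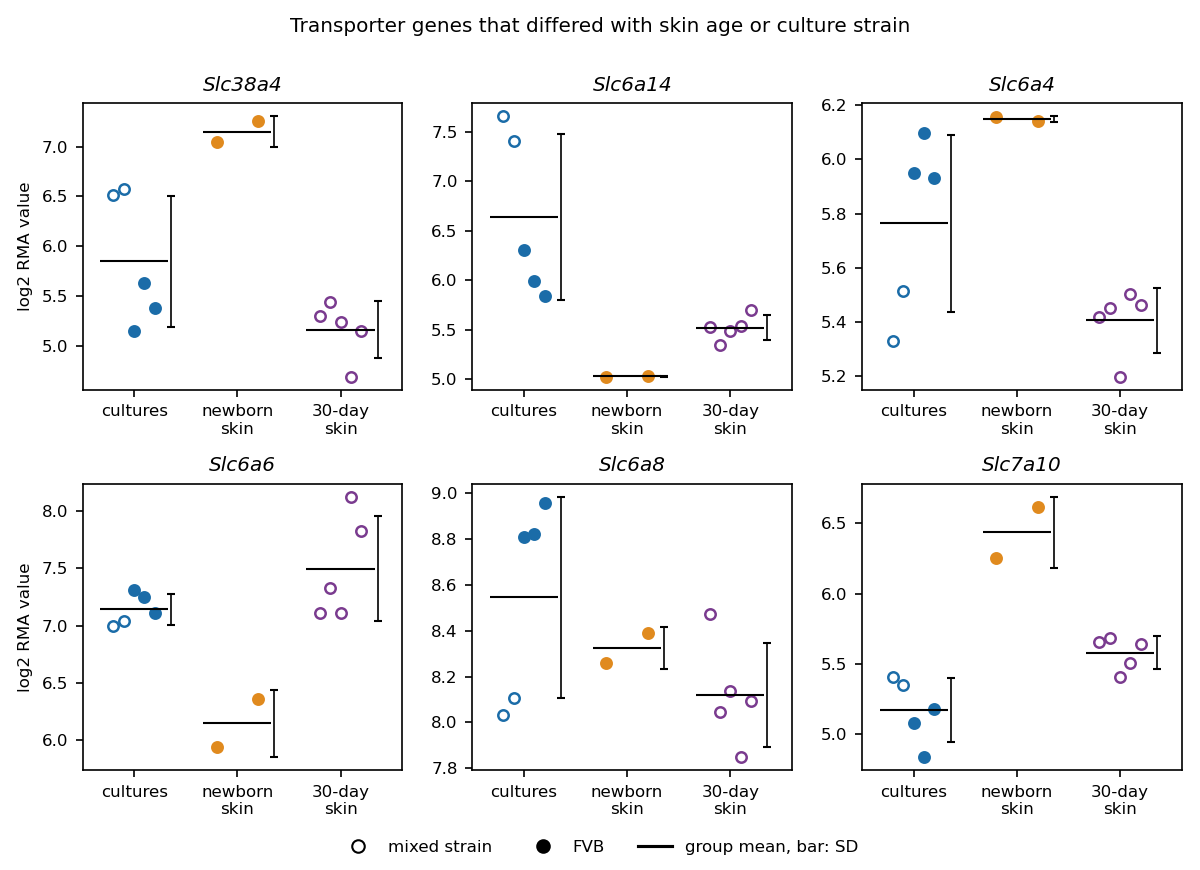
Log2 RMA value on each array (vertical axes, which differ between panels) for 6 transporter genes that differed with skin age or culture strain; open circles are mixed-strain and filled circles FVB samples, lines are group means and bars 1 SD. Slc38a4 lies at 7.04 and 7.26 in newborn skin and at most at 5.44 in 30-day skin, and Slc6a14 at 7.65 and 7.41 in mixed-strain cultures and at most at 6.31 in FVB cultures.

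Among the cultures, 2 transporters were higher and 5 lower in the 2 of mixed strain than in the 3 of FVB (7 of 47, where 9.84% of all genes were called, 3.18% higher and 6.66% lower). Cultures 1 and 2 were close to each other, so this comparison has little replication on the mixed side, and the number lower was 0 without culture 1, 2 without culture 2 or culture 4, and 0 with close arrays averaged. At 2-fold or more, 2 were higher and 0 lower (1.23% of all genes in either direction), and the arrays of the strains did not overlap in 15 and 14 (20.4% and 25.4%). Slc6a14 was higher by 1.49 ± 0.14 (limma adjusted p = 2e-05), with 0.96 from its other probe set. Slc38a4 read 6.52 and 6.58 in the mixed-strain cultures and 5.15, 5.63 and 5.38 in the FVB cultures, a rise of 1.16 ± 0.19 (limma adjusted p = 0.0016), whereas its other probe set gave 0.15 and was not called. The lysosomal Slc15a4 fell by 0.84 (limma adjusted p = 0.016), but not past the threshold without culture 1, 2 or 4 (-0.75, -0.93 and -0.70, adjusted p = 0.177, 0.0738 and 0.0711). Slc6a8 read 8.03 and 8.11 in the mixed-strain cultures and 8.81, 8.82 and 8.96 in the FVB cultures. It fell by 0.79 (limma adjusted p = 0.0039; -0.76 and adjusted p = 0.0647 without culture 1), while its other probe set differed by -0.06. Slc6a4 fell by 0.57 (limma adjusted p = 0.0071; -0.48 and adjusted p = 0.136 without culture 1), and Slc3a2 by 0.47 (adjusted p = 0.027; not called without culture 1, 2 or 4, -0.45, -0.50 and -0.40). Slc38a10 fell by 0.61 (limma adjusted p = 0.039), a direction that is opposed by another of its probe sets, which was called higher by 0.53, and the call was lost without culture 1, 2, 3 or 4 or either newborn array (-0.76 to -0.47, adjusted p of 0.0506 to 0.349). Of 8 melanocyte markers, 6 were higher in the mixed-strain cultures (Tyrp1 by 2.29, Dct by 2.15), and 3 of 9 fibroblast markers were higher. Of 9 epidermal keratinocyte markers, 0 were higher and 3 were lower. Their part in these differences was not tested.

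**Figure D5:**
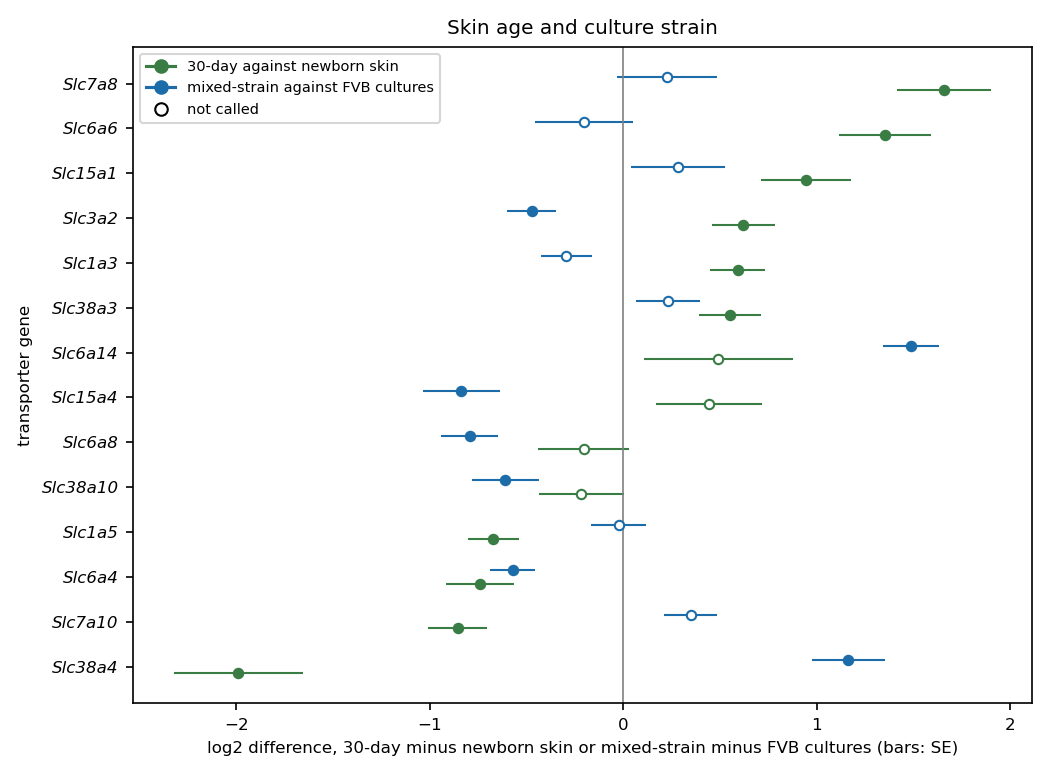
Log2 difference, 30-day minus newborn skin (green) and mixed-strain minus FVB cultures (blue), for the 14 transporter genes called in at least 1 of these comparisons; bars are 1 SE and open circles were not called. Slc7a8 and Slc6a6 lie farthest to the right for age (1.66 and 1.35) and Slc38a4 farthest to the left (-1.99), while Slc6a14 (1.49) and Slc38a4 (1.16) lie to the right for strain.

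Other genes of amino acid supply were taken from lists fixed by name, which were chosen with earlier results of these data known. Of 22 genes of the amino acid response and ATF4 targets, 8 were higher and 4 lower in cultures than in all skin (24.6% and 22.4% of all genes), with a list median of 0.224 against 0.012 over all genes. The asparagine synthetase Asns rose by 2.0 (limma adjusted p = 6.3e-08) and the stress regulators Ddit4 and Ddit3 by 1.57 and 0.90, whereas the glutathione-degrading enzyme Chac1 fell by 1.19. Of 18 aminoacyl-tRNA synthetases, which charge tRNAs with amino acids, 12 were higher and 0 lower, with Nars, Iars and Cars higher by 1.23, 1.09 and 1.05, and Eprs, at -0.05, not called. Of 17 genes for synthesis of serine, glycine, proline and asparagine, 8 were higher and 6 lower. The serine pathway enzymes Psph and Psat1 rose by 1.21 and 1.19. The cystathionine synthase Cbs, which is on this list although its product is not among these amino acids, fell by 1.54.

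In cultures against all skin, 24.6% of all genes were higher and 22.4% lower, the shares beside which the next 4 lists are read. Of 21 genes of amino acid breakdown, 2 were higher and 10 lower in cultures. The histidase Hal, which forms urocanic acid in the upper epidermis, fell by 3.94 (limma adjusted p = 6.2e-10), whereas the arginase Arg1 rose by 3.19. The cysteine dioxygenase Cdo1 and the other arginase Arg2 were also lower (-2.66 and -2.28). Of 17 genes of the gamma-glutamyl cycle and of peptidases, which release amino acids outside the cell, 4 were higher and 9 lower, among them the membrane peptidases Dpp4 (-2.23), Anpep (-2.21) and Dpep1 (-2.07). Of 22 genes of mTORC1 amino acid sensing, 6 were higher and 4 lower, with the GTPases Rraga and Rragc up by 1.01 and 0.94 and the leucine sensor relatives Sesn1 and Sesn3 down (-1.64 and -0.86). Of 13 other amino acid carriers, 1 was higher and 4 lower, with the mitochondrial ornithine carrier Slc25a15 lowest (-1.17). Between the ages of skin the numbers higher and lower were 4 and 0 for the response genes, 0 and 3 for the synthetases, 2 and 3 for synthesis, 3 and 5 for breakdown, 3 and 0 for the peptidase list, 2 and 0 for sensing and 1 and 0 for other carriers (5.91% and 9.84% of all genes). In mixed-strain compared with FVB cultures, 1 response gene was higher and 9 were lower, and 0 synthetases were higher and 5 lower (3.18% and 6.66% of all genes). The other lists had few calls between the strains. Their numbers higher and lower were 0 and 2 for synthesis, 1 and 0 for breakdown, and 0 and 1 for the peptidase list. For sensing they were 1 and 2, and for other carriers 0 and 0.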

How the data were processed

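The deposited values are log2 expression values that the authors computed with RMA, per the submitters' processing notes, with the version not given in the sources used here. Of 22690 probe sets, 64 controls, 691 with several symbols in the platform annotation and 1555 with none were left out, and 1 probe set was kept for each of the 12393 genes, its brightest by mean over all arrays. Columns of samples outside the series numbered 0. All 47 member symbols matched RefSeq by gene identifier and 0 had changed. Group means were fitted with limma 3.58.1 (lmFit, eBayes) in R 4.3.3 over all 12 arrays, with both ages of skin weighted equally in the comparison with all skin, and the cultures were split by strain in a separate term for the strain comparison. Tests were two-sided, p-values were adjusted by Benjamini-Hochberg over the 12393 genes and called at 0.05, intervals used the moderated t distribution, and the scripts were tested on simulated data. Values on single arrays carry no read depth, and the number of arrays limits the precision. The promoter search, counts and figures used Python 3.11.15 with pandas 2.3.3, numpy 2.4.6 and matplotlib 3.10.9.

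Any member could be named. Values were given by array, as ranges or in a figure for called members whose arrays did not overlap and for a set of members fixed by name. Of each pathway list, up to 4 called genes with the largest differences and 1 that was not called could be named. The members and lists were chosen with earlier results of these data known. Alternatives covered centring on array medians or on epithelial junction genes, a repeated quantile normalization, a filter on dim genes, other ways of combining probe sets, an intensity trend, array weights, strain as a covariate, a replicate block, fewer arrays in the fit, strain-matched arrays, stricter thresholds and leaving out each array. Same-numbered samples did not deviate together (correlations of -0.284 to 0.23), so the numbers were not treated as pairs.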

Additional observations from a re-analysis of the deposited data

Results flagged for a closer look

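In 8 of 94 sets of 5 arrays (the cultures or the 30-day skins of 1 transporter gene), the highest or lowest array lay far from the rest by Dixon's criterion, which chance alone meets in about 5% of sets. The array 30-day skin 1 was the stray one in 4 of the 8: it read 7.09 for Slc15a2 where the next array read 6.21, 5.47 for Slc1a4 (next 6.32), 8.79 for Slc38a10 (next 8.34) and 6.91 for Slc7a6 (next 6.66). This array also had the large 3′ to 5′ actin gap of 1.74, and its part in these values was not tested. The others were Slc3a1 at 5.11 in 30-day skin 4 (next 4.86), Slc6a4 at 5.20 in 30-day skin 3 (next 5.42), Slc15a3 at 8.75 in culture 5 (next 9.03) and Slc7a9 at 4.76 in culture 3 (next 4.61). Slc38a4 differed between the ages of skin by -1.99 in limma's test of the 2 skin groups (adjusted p = 0.00096). The mean of the cultures was below that of newborn skin (-1.30) and above that of 30-day skin (0.69). The FVB cultures, at 5.15, 5.63 and 5.38, overlapped the 30-day arrays, which read 4.69 to 5.44.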

How the results depend on the processing

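Of 80 called gene results over the 5 comparisons, 21 of at least 2-fold, 15 kept direction and call under every alternative run. Setting aside the 2 stricter thresholds, which end smaller calls by construction, 37 did, and 42 when the junction centring, which shifts all genes alike, was also set aside; 53 did when the fits without a newborn array or a mixed-strain culture and those with close arrays averaged were set aside too. In all, 8 reversed, 7 of them by that centring. Junction centring reversed Slc6a9 (-0.31 against skin, -0.39 against newborn skin), Slc7a3 (-0.19, -0.35 and -0.025 against skin, newborn and 30-day skin), Slc38a2 (-0.012 against newborn skin) and Slc6a4 (-0.036 against 30-day skin), and fitting all probe sets reversed Slc38a10 between strains (0.53). Junction centring gave 4 higher and 38 lower transporters against skin, 2 and 38 against newborn skin, 5 and 33 against 30-day skin, and 3 and 20 with age; it moved the median gene by construction. Median centring gave 16 higher against skin and 16 against 30-day skin. Leaving out the dimmest 40% of genes, which drops 29 of the 47, left 6, 3 and 6 lower against skin, newborn and 30-day skin, 5 higher against 30-day skin, 1 lower with age and 0 higher with strain. A repeated quantile normalization left 3 lower with strain, and array weights gave 7 higher and 8 lower with strain. Strain as a covariate and strain-matched arrays each left 5 higher against 30-day skin. The replicate block gave 3 higher with age and 3 lower with strain; the numbers do not pair the samples. At an adjusted p of 0.01, 2 were higher with age and 2 lower with strain. At 2-fold or more, 3 higher and 2 lower remained past the threshold against skin, 3 and 4 against newborn skin, 2 and 2 against 30-day skin, 2 and 1 with age, and 0 lower with strain. Averaging close arrays, an alternative chosen after seeing the data, gave 5 higher against newborn skin, 2 higher and 1 lower with age, and 0 lower with strain. Leaving out 1 array gave 6 to 9 higher and 13 to 15 lower against skin, 5 to 8 and 5 to 11 against newborn skin, 7 to 9 and 13 to 17 against 30-day skin, 2 to 7 and 1 to 5 with age, and 2 to 4 (4 without culture 5) and 0 to 6 with strain. The cause of these moves was not tested except where named. Most transporters are dim, which limits what small differences show.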
